A study of Mus musculus with 18 samples.

Results

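RNA of wild-type mouse CD4+ T cells cultured with XCT790 was compared with RNA of resting wild-type CD4+ T cells, 3 arrays against 3, which are 6 of the 18 arrays of the series. The arrays were chosen by their titles alone, without any measured value. The study asked how the oestrogen-related receptor alpha, ERRα, bears on gene expression in CD4+ T cells, and it used wild-type cells, cells of ERRa-/- mice and 2 inhibitors of the receptor. All mice were 6 to 8 weeks old, and the cells were purified by negative selection. Resting cells were untreated and were taken directly from the mouse. The XCT790 cells received the compound at 20 µM, and per the protocol this was done during 12 h of stimulation with antibodies to CD3 and CD28, 10 µg of which were given. The stimulation field of the XCT790 labels reads instead that these cells had no stimulation. The design text and protocol place both inhibitors in the stimulation, so the XCT790 cells were set against 3 references: resting wild-type cells, wild-type cells stimulated without an inhibitor, and wild-type cells with compound A, an inhibitor named only by its code and also used at 20 µM. Knockout cells, resting and stimulated, gave a measure of activation that shares no array with the comparison described here. Each group had 3 arrays, described as independent biological replicates. No group held resting cells with XCT790, or cells cultured for 12 h without antibody, so time in culture, stimulation and the compound all differ between the XCT790 and resting arrays.

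A naive T cell is small and quiescent. It is held there by transcription factors such as KLF2 and FOXO1, and it burns fuel mainly by oxidative phosphorylation. Engagement of the T cell receptor together with CD28 switches on early transcription factors, cytokines and their receptors, and then a growth programme in which ribosomes, amino acid import, glycolysis, lipid synthesis and mitochondria expand before the first division. ERRα, encoded by Esrra, is an orphan nuclear receptor that binds DNA beside its coactivators of the PGC-1 family and is best known for activating genes of the tricarboxylic acid cycle and the respiratory chain. XCT790 lowers the activity of ERRα as an inverse agonist, and it has also been described as an uncoupler of mitochondrial respiration.

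The deposited values are log2 signals that all arrays share as 1 distribution, so a difference is relative to the other genes of the same array and does not show the amount of RNA per cell. In bulk samples, fewer cells of a type and less RNA per cell cannot be told apart. Of 20380 probe sets that name a single gene, 10691 reached log2 4 on at least 3 of the 18 arrays and were tested, which covers 6873 of 12393 genes, each represented by its probe set of highest mean. XCT790 arrays correlated with each other at 0.984 to 0.996 across the tested probe sets, and XCT790 array 1 lay farthest from its group. XCT790 arrays correlated with stimulated wild-type arrays at 0.905 to 0.935 and with resting ones at 0.827 to 0.852. A control for the labelling reaction split the series: the probe set at the 5′ end of the bacterial dap transcript read 7.85 ± 0.20 (SD, n = 3) on XCT790 arrays, 4.86 ± 1.15 on resting wild-type arrays and 7.60 ± 0.25 on resting knockout arrays. Stimulated wild-type arrays read 5.02 ± 0.28 (SD). The split thus runs between the XCT790 arrays and both wild-type references, resting and stimulated. Within these comparisons it cannot be told apart from XCT790 or, against rest, from culture. For some gene lists, the difference from resting knockout arrays, which lie on the same side of the split, is given beside the wild-type one. These are the NF-kappaB, integrated stress response, hypoxia-inducible factor, tricarboxylic acid cycle, respiratory chain, mitochondrial ribosomal, cholesterol, DNA replication and interferon lists and some cell markers. For most other lists it is not given. Differences from stimulated wild-type cells were not repeated against stimulated knockout arrays.

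With XCT790, 4930 of 6873 genes, or 71.7%, differed from resting cells at an adjusted p under 0.05 (limma, Benjamini-Hochberg). Of these, 2299 genes (33.4%) rose and 2631 (38.3%) fell, and 2133 genes (31.0%) changed at least 2-fold. Counted over the 10691 probe sets, 72.3% passed, 38.7% up and 33.6% down. Stimulation alone changed 75.1% of genes in wild-type cells, with 36.8% rising and 38.3% falling, and it changed 73.2% in knockout cells, with 37.6% rising and 35.6% falling. XCT790 and stimulated cells differed in 65.9% of genes, 29.0% higher and 36.9% lower with XCT790, or 66.6% of probe sets, 31.7% higher and 35.0% lower. So large a share of genes passed that a count within a list has to be read against these percentages. The median difference over all genes was -0.05 for XCT790 against rest and -0.06 for XCT790 against stimulated cells.

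Activation genes were taken from the knockout arrays, where 994 genes rose and 1158 fell at least 2-fold with stimulation. These cells come from ERRa-/- mice, so genes that stimulation changes only in wild-type cells are not counted. An activation gene is called present when it passed in the same direction with XCT790 against rest, opposite when it passed in the other direction, and missing when it did not pass against rest but differed from stimulated wild-type cells on the side of rest. Of the 994 rises, 782 (78.7%) were present, 160 (16.1%) missing and 31 (3.12%) opposite, and 21 were undecided. Of the 1158 falls, 971 (83.9%) were present, 100 (8.64%) missing and 29 (2.50%) opposite, and 58 were undecided. Most of activation as defined in knockout cells was therefore found in the XCT790 cells, and it was often smaller. Of the 782 present rises, 445 were short of the level in stimulated wild-type cells, 131 went beyond it and 206 could not be told apart from it. Falls were closer to the stimulated level, with 281 short, 224 beyond and 466 not told apart. These falls include markers of other cells in the resting preparations. With stimulation in knockout cells, 14 of 15 macrophage, 9 of 9 erythroid, 8 of 8 neutrophil and 7 of 8 B cell markers fell. Of 17 macrophage markers, 16 were under log2 4 both with XCT790 and after stimulation. The part of such cells in the counts of falls was not tested. The median of the 994 rises was 0.96 on the log2 scale with XCT790 against 1.57 with stimulation alone in wild-type cells, and that of the falls was -1.68 against -1.78. Both medians are differences from the same 3 resting arrays.

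**Figure D1:**
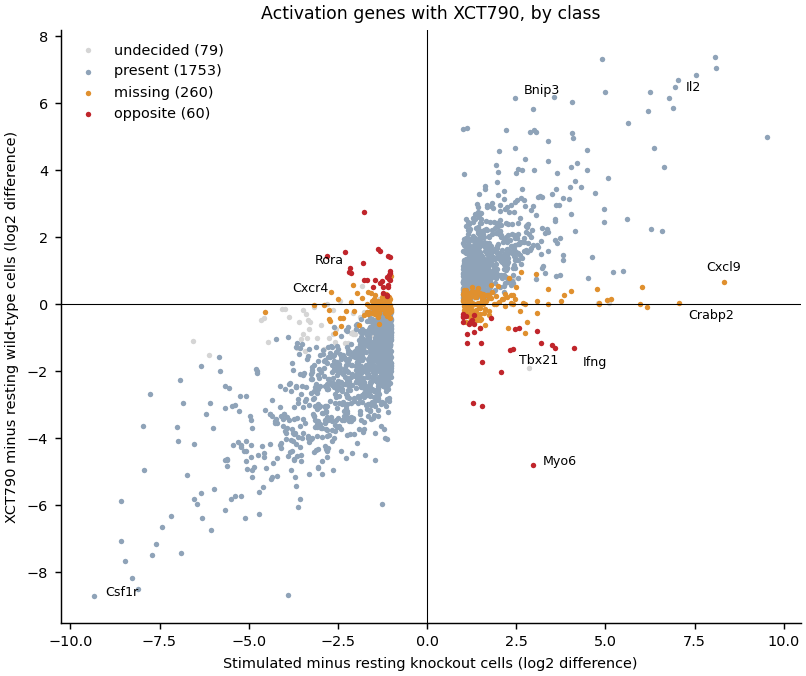
Each point is 1 of the 2152 genes that changed at least 2-fold with stimulation in knockout cells; the x axis gives that log2 difference and the y axis the log2 difference of XCT790 from resting wild-type cells, means of 3 arrays each. Present genes (782 rises and 971 falls) lie in the upper right and lower left, missing genes along the horizontal line, and opposite genes (31 rises and 29 falls) in the other corners, where Myo6, which was not detected with XCT790, is plotted at -4.81.

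Il2, the T cell growth factor, was one of the rises present in full. Its resting arrays read 3.96, 4.74 and 4.68, the stimulated arrays 11.13, 11.35 and 11.27, and the XCT790 arrays 10.60, 11.05 and 11.15 on the log2 scale. All XCT790 arrays lay far above all resting arrays and overlapped the stimulated ones. The rise over rest was 6.47 ± 0.28 (SE), or 87.9-fold (adjusted p = 6.29e-11), and the difference from stimulated cells was -0.32 ± 0.28 (adjusted p = 0.326). Ifng, the interferon of T helper 1 cells, behaved differently: resting arrays read 7.58, 7.96 and 7.63, stimulated arrays 11.81, 11.14 and 11.70, and XCT790 arrays 6.80, 5.97 and 6.51. Here the XCT790 arrays lay below every resting array and far below every stimulated one. Ifng fell by 1.30 ± 0.34 against rest (2.46-fold, adjusted p = 0.00296) and was 34.8-fold lower than in stimulated cells (adjusted p = 1.76e-08), while it had risen by 4.11 in knockout cells.

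The rest of the cytokine list divided in the same manner. Of 18 cytokine genes tested, 14 rose with activation in knockout cells and 13 in wild-type cells. With XCT790, 7 rose and 4 fell against rest, with a median of 0.40 beside 2.30 for stimulation alone, and 11 of the 18 were lower than in stimulated cells. Tnfsf8, the ligand of CD30, rose 35.0-fold over rest and was 1.96 log2 units above stimulated cells, and Tnfsf11, which encodes RANK ligand, rose 6.48-fold and was 1.26 above them. Il4, the signature cytokine of T helper 2 cells, read from 3.94 to 4.40 at rest, 7.29, 6.58 and 7.66 after stimulation and 2.77, 2.81 and 2.81 with XCT790. Resting arrays lay near log2 4 and all XCT790 arrays under it, at least 1.10-fold lower, so the pass against rest (adjusted p = 0.0069) rests on values at the floor, and it was lost against resting knockout arrays (adjusted p = 0.2326). Il4 was at least 9.03-fold lower with XCT790 than in stimulated cells. Il17a, Il13 and Il21, cytokines of helper T cells, were under log2 4 on average both at rest and with XCT790, and they were at least 2.58-fold, 2.75-fold and 3.19-fold lower with XCT790 than in stimulated cells. The cytokine list was classed as mixed.

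Chemokines had the widest gap between XCT790 and stimulation of all lists. Of 10 tested, 8 rose in stimulated wild-type cells with a median of 4.62 over the list; 5 rose with XCT790 with a median of 0.82, and 8 were lower than in stimulated cells. Ccl4, which attracts monocytes and T cells, read 2.60, 4.44 and 3.43 at rest, 10.99, 10.23 and 10.45 after stimulation and 11.15, 9.96 and 9.88 with XCT790. It rose 72.5-fold over rest and overlapped the stimulated arrays. Ccl3, its neighbour and close relative, rose 5.84-fold and remained 2.80 below stimulated cells on the log2 scale. Cxcl9, a chemokine that interferon gamma induces, read 9.25, 8.32 and 8.33 in stimulated cells, 2.34, 2.28 and 2.42 at rest and 3.02, 2.80 and 3.22 with XCT790. It was under log2 4 on all resting and XCT790 arrays, so it was not detected there, and it was at least 24.8-fold lower than in stimulated cells. Ccl5, which activation lowered by 3.45 in knockout cells, fell by 2.07 with XCT790 and was 3.17 higher than in stimulated cells. The list was classed as present with 5 of 10 genes and became mixed without XCT790 array 2, with all single-gene probe sets tested and with a 2-fold limit.

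Receptors of activated T cells were mostly present. Of 17 activation and costimulatory receptors, 11 rose over rest with XCT790 and 3 fell, against 12 and 1 with stimulation, and the medians were 1.48 and 1.39. Il2ra, the alpha chain of the interleukin-2 receptor, read 7.20, 7.12 and 6.77 at rest, 10.68, 10.87 and 10.89 after stimulation and 9.70, 10.71 and 10.62 with XCT790, a rise of 9.94-fold (adjusted p = 7.75e-09). Tnfrsf9 (4-1BB) rose 16.1-fold, Slamf1 9.82-fold and Tnfrsf4 (OX40) 8.82-fold, and none of the 3 passed against stimulated cells. Il2rb, the beta chain that interleukin-2 and interleukin-15 receptors share, moved the other way: it rose by 0.50 in stimulated knockout cells and fell by 1.28 with XCT790, to 1.33 below stimulated cells. Ctla4, an inhibitory receptor that competes with CD28 for its ligands, read 8.73, 8.97 and 8.43 at rest, 9.06, 9.17 and 9.11 after stimulation and 10.71, 10.37 and 10.43 with XCT790. All its XCT790 arrays lay above all the others, 3.46-fold over rest and 2.62-fold over stimulated cells.

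Of 21 early response transcription factors, 11 rose and 7 fell with XCT790, and 12 rose and 5 fell with stimulation. The list was classed as present and became mixed without resting array 3 and without XCT790 array 3. Irf4, which scales with the strength of receptor signalling, read 7.80, 7.64 and 6.33 at rest, 12.99, 13.05 and 13.00 after stimulation and 13.56, 13.54 and 13.64 with XCT790. It rose 80.2-fold over rest. All its XCT790 arrays lay above the stimulated ones, but the difference of 0.57 did not pass (limma, adjusted p = 0.0868). The difference passed with probe sets averaged (limma, adjusted p = 0.000154), with array weights (adjusted p = 0.00493) and without resting array 3 (adjusted p = 0.00282). Egr2, an early target of calcium signalling, rose 4.26-fold, Nfil3 11.4-fold and Bhlhe40 36.3-fold. Myc, which drives growth and biosynthesis, rose only part of the way: its arrays read 9.88, 9.79 and 9.75 at rest, 12.20, 11.99 and 11.99 after stimulation and 11.09, 10.98 and 10.98 with XCT790, with no overlap between any of the groups. The rise was 2.31-fold (adjusted p = 8.53e-08), and Myc stood 1.05 below stimulated cells (adjusted p = 7.25e-07). Maff, a small Maf protein, rose at least 12.1-fold and was 3.57 above stimulated cells. The immediate early genes Fos, Jun and Ier2 fell, with differences from rest of -4.92, -2.43 and -1.93, beside -5.05, -2.23 and -1.62 in stimulated knockout cells. Fos was 0.93 above stimulated wild-type cells. That call was lost with all single-gene probe sets tested and without stimulated array 2 or 3 or XCT790 array 1. Jun was 0.45 above stimulated wild-type cells, and neither Jun nor Ier2 passed against them in the main fit.

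Several genes of T helper 1 cells stood at or below their resting levels with XCT790. Tbx21 encodes T-bet, which specifies T helper 1 cells and drives Ifng. It read 9.08, 8.89 and 8.66 at rest, 11.01, 11.02 and 11.09 after stimulation and 7.03, 7.81 and 7.68 with XCT790, so no XCT790 array reached a resting one. It fell by 1.37 ± 0.21 (adjusted p = 3.14e-05) and was 11.6-fold lower than in stimulated cells. Il12rb1, a chain of the interleukin-12 receptor, fell by 1.22 (adjusted p = 0.0137), a call that was lost without resting array 2 (adjusted p = 0.0657). Gzmb, the granule protease granzyme B, was missing: 8.01, 8.01 and 7.60 at rest, 12.32, 11.49 and 11.69 after stimulation, and 8.40, 7.93 and 7.78 with XCT790, which overlapped rest. Gzma, granzyme A, read 7.95, 8.69 and 8.42 at rest and 3.34, 2.40 and 2.56 with XCT790, at least 20.4-fold lower. Batf, a partner of Irf4 in T helper differentiation, rose by 1.31 in stimulated knockout cells and fell by 0.84 with XCT790, beside -0.45 against resting knockout arrays (adjusted p = 0.08046). CD8 T cells and natural killer cells make several of these products too. Their 11 markers on the array, Gzma among them, had a summed signal of 11.4 to 11.6 at rest, 10.2 to 10.6 after stimulation and 9.25 to 9.39 with XCT790, where 6 of 11 were under log2 4, and their part in these values was not tested.

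NF-kappaB genes stood above their stimulated levels. Of 14 tested, 8 rose over rest with XCT790 and 1 fell, with a median of 0.86 beside 0.41 for stimulation, and 10 were higher than in stimulated cells. Against resting knockout arrays 12 rose and 0 fell, with a median of 1.27. Nfkb2 and Relb, subunits of the alternative pathway, rose 8.61-fold and 5.58-fold. Tnfaip3 encodes A20, which shuts off NF-kappaB signalling. It read 3.94, 4.34 and 4.34 at rest, 4.44, 4.55 and 4.55 after stimulation and 7.56, 6.93 and 6.79 with XCT790, a rise of 7.30-fold, with every XCT790 array above the others. The genes of the SOCS and Pim list, which cytokine signals induce, divided: Pim1, a kinase, rose 4.65-fold and stood 1.08 above stimulated cells, whereas Cish and Pim2 rose 3.91-fold and 3.26-fold and differed from stimulated cells by -1.02 and -1.05. Socs1, an inhibitor of interferon signalling that rose by 4.05 in stimulated knockout cells, was missing, at 6.49, 6.27 and 6.25 with XCT790, 5.65, 6.12 and 6.11 at rest and 8.97, 8.84 and 8.75 after stimulation. That call was not stable: Socs1 passed as a rise with the compared groups fitted alone (adjusted p = 0.03439) and against resting knockout arrays, by 1.21 (adjusted p = 0.01001). Socs3 fell by 2.84 against rest and was 1.95 lower than in stimulated cells.

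**Figure D2:**
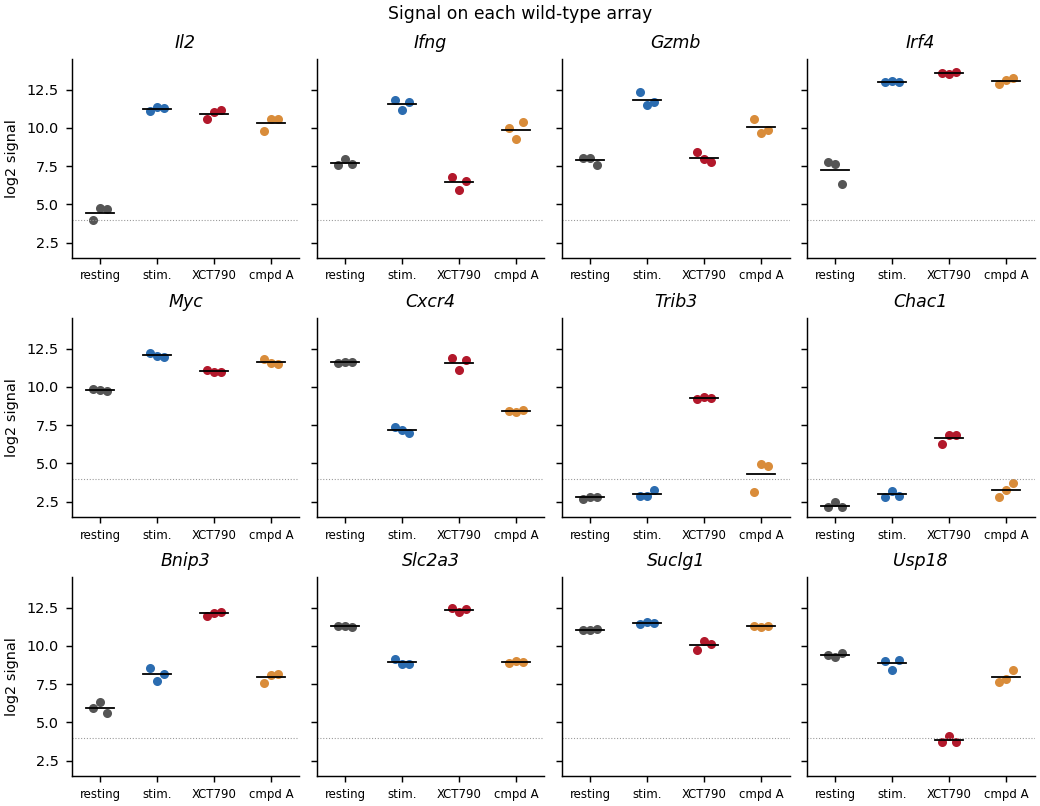
Log2 signal of 12 genes on each wild-type array, with 1 panel per gene, a dot per array, a line at the mean of 3 arrays and a dotted line at log2 4, below which a signal counts as not detected. Il2 reached stimulated levels with XCT790, and Irf4 lay above them on every array without passing in the main fit. Ifng and Usp18 lay below rest, Cxcr4 and Gzmb stayed at resting levels, and Trib3, Chac1 and Bnip3 were highest with XCT790.

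Genes of ribosome production were present. All 43 ribosome biogenesis genes rose in stimulated cells of either genotype, and 42 of them rose with XCT790, with a median of 1.18 beside 1.66 for stimulation; 34 were lower than in stimulated cells. Nop56, a core protein of the complexes that methylate ribosomal RNA, read 11.35, 11.13 and 11.37 at rest, 12.98, 12.94 and 12.86 after stimulation and 12.44, 12.42 and 12.53 with XCT790. Each group stood apart, with XCT790 between the other two. Rrp9, which works on the small subunit, rose by 1.80. The chaperonins that fold actin, tubulin and mitochondrial matrix proteins were similar, with 10 of 10 up and 7 of these lower than in stimulated cells. Proteasome genes showed a larger shortfall: 41 of 45 rose with stimulation with a median of 1.10, 27 rose and 4 fell with XCT790 with a median of 0.30, and 40 were lower than in stimulated cells. Psma4, a subunit of the core particle, rose 1.71-fold with XCT790, to 0.36 below stimulated cells. Purine synthesis enzymes reached 5 of 10 with a median of 0.52, beside 9 of 10 and 1.28. The aminoacyl-tRNA synthetases, which charge transfer RNAs, were the exception: 15 of 18 rose with XCT790 with a median of 1.54 beside 1.31, and 10 were above and 8 below stimulated cells. Aars, the synthetase for alanine, read 8.76, 8.58 and 8.65 at rest, 10.20, 10.52 and 10.50 after stimulation and 11.58, 11.68 and 11.68 with XCT790. Hars, the synthetase for histidine, differed from rest by 0.26 (adjusted p = 0.18) and was 0.83 lower than in stimulated cells.

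Genes of the integrated stress response were the list that stood farthest above both references. In this response, kinases that sense a lack of amino acids, misfolded protein or mitochondrial trouble phosphorylate the initiation factor eIF2, and the transcription factor ATF4 then turns on amino acid import and synthesis. Of 22 members tested, 20 rose over rest and 20 were higher than in stimulated cells, with medians of 2.74 and 2.20. With stimulation alone 10 rose and 5 fell, with a median of 0.40. In knockout cells 11 of 22 rose with activation, just the 50% that defines a direction, so the class of this list was not stable. It had no direction with all single-gene probe sets tested, a common median, a trended and robust prior, a 2-fold limit or activation taken from wild-type cells, and none without any 1 of the resting arrays, without stimulated array 1 or 2 or without XCT790 array 2. Trib3, a pseudokinase that ATF4 and CHOP induce, read 2.70, 2.80 and 2.81 at rest, 2.84, 2.88 and 3.28 after stimulation and 9.24, 9.34 and 9.25 with XCT790. It was detected with XCT790 alone among these 3 groups, at least 38.8-fold over rest (adjusted p = 4.91e-10). Chac1, which degrades glutathione, read 2.12, 2.45 and 2.13 at rest, 2.82, 3.19 and 2.89 after stimulation and 6.24, 6.84 and 6.84 with XCT790, at least 6.23-fold higher than rest.

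Other members of the response included genes that activation lowers. Ddit3, which encodes CHOP, read 8.40, 8.64 and 8.68 at rest, 7.50, 7.61 and 7.51 after stimulation and 11.42, 10.26 and 10.52 with XCT790, a rise of 4.47-fold over rest and 9.16-fold over stimulated cells. Pck2, the mitochondrial phosphoenolpyruvate carboxykinase, was higher with XCT790 than at rest by 1.44 and than in stimulated cells by 3.14, and differed from resting knockout arrays by 0.36 (adjusted p = 0.3783). Asns, asparagine synthetase, rose 6.72-fold over resting wild-type cells, but its difference from resting knockout arrays was -0.17 (adjusted p = 0.783), and it had fallen by 1.78 in stimulated knockout cells. Sesn2, a sensor of leucine that restrains mTORC1, rose 5.54-fold. Gpt2, a mitochondrial alanine aminotransferase outside the list, rose at least 11.0-fold. Ddit4, another inhibitor of mTORC1, was the member that fell, 2.84-fold against rest, and it was 2.22 higher than in stimulated cells. All 9 amino acid transporters rose: Slc7a5, the large neutral amino acid carrier, 7.78-fold, and its partner Slc3a2, whose arrays read 10.20, 9.98 and 10.07 at rest, 10.66, 10.72 and 10.81 after stimulation and 13.28, 12.63 and 12.83 with XCT790, 7.10-fold. Of 8 enzymes of serine synthesis and folate one-carbon metabolism, 7 rose. Mthfd2, of the mitochondrial folate branch, rose 9.78-fold and stood 2.07 above stimulated cells, and Shmt1, of the cytosolic branch, rose 23.9-fold and stood 1.33 below them. With resting knockout arrays as the reference, 18 of the 22 integrated stress response genes rose and 1 fell, with a median of 2.65.

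The promoters of these genes were searched because ATF4, with a C/EBP partner, binds a composite element spelled TGATGNAA. In RefSeq promoters of the mouse build GRCm38.p6, either strand of the 250 bases before the start held it in 3.45% of 32851 promoters and in 2.31% of the 5666 tested genes that matched one. It stood in 4 of 19 integrated stress response genes with a promoter and in 3 of 11 aminoacyl-tRNA synthetases (Aars, Gars and Tars). The stretches around it are shown for the 4 members and for Aars, written along the gene with the element in capitals, as TGATGNAA for Asns and as its reverse complement for the others.
Asns, chr6:7693210-7693256, minus strand: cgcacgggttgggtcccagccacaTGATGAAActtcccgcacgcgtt
Atf3, chr1:191183412-191183467, minus strand: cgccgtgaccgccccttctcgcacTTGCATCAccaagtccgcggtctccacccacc
Chac1, chr2:119351025-119351080, plus strand: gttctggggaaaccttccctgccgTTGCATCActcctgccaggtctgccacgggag
Pck2, chr14:55540139-55540194, plus strand: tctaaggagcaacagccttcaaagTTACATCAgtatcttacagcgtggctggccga
Aars, chr8:111033706-111033761, plus strand: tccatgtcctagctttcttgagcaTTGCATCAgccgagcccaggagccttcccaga
The element began 23 bases before the start in Asns, 110 in Atf3, 193 in Chac1, 103 in Pck2 and 112 in Aars. All 5 genes shown rose with XCT790 over resting wild-type cells. Atf3 rose 30.7-fold to a level that overlapped stimulated cells, and the other 4 rose to levels above them. Most members of both lists rose, 20 of 22 and 15 of 18, so these rises do not set apart genes with the element. Asns and Pck2 did not pass against resting knockout arrays, with differences of -0.17 and 0.36. A match is a description of these letters and shows no binding.

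Glycolysis was present and stood above stimulation. Of 14 genes, 11 rose with XCT790 and 3 fell, with a median of 1.92 beside 1.08, and 8 were higher than in stimulated cells. Hk2, the inducible hexokinase of the first step, read 4.23, 4.51 and 4.17 at rest, 9.86, 9.75 and 9.88 after stimulation and 10.31, 10.71 and 10.84 with XCT790, a rise of 80.0-fold. Tpi1, triosephosphate isomerase, rose 11.4-fold, Pfkp, a phosphofructokinase, 5.97-fold and Pgk1, phosphoglycerate kinase, 3.77-fold, and these 3 stood 1.41, 1.48 and 0.84 above stimulated cells. Ldhb, the lactate dehydrogenase subunit that favours pyruvate formation, was among the 3 that fell. It read 8.05, 8.40 and 8.48 at rest, 8.34, 8.38 and 8.16 after stimulation and 6.16, 6.70 and 6.43 with XCT790, a difference from rest of -1.88, with stimulated and resting arrays overlapping. The transporters moved strongly. Slc2a1 (GLUT1) rose 5.81-fold. Slc2a3 (GLUT3) read 11.31, 11.30 and 11.22 at rest, 9.18, 8.81 and 8.79 after stimulation and 12.46, 12.23 and 12.40 with XCT790, so that a gene with a difference of -2.17 on activation in knockout cells rose by 1.09 with the inhibitor. Slc16a3 (MCT4), which exports lactate, read 2.30, 2.30 and 2.27 at rest and 6.12, 5.96 and 6.06 with XCT790, at least 4.13-fold higher. Txnip, a brake on glucose uptake, fell 10.1-fold with XCT790, and its arrays overlapped those of stimulated cells.

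Targets of hypoxia-inducible factors moved together with these. HIF-1 is stabilised when oxygen is low and also by signals of T cell activation. Of 17 targets, 16 rose with XCT790 and 1 fell, with a median of 1.74 beside 0.57 for stimulation, and 15 were higher than in stimulated cells. Vegfa, the vascular growth factor, read 2.22, 2.23 and 2.23 at rest, 2.23, 2.24 and 2.24 after stimulation and 8.13, 8.61 and 8.46 with XCT790. It was far under the floor in both other groups and was at least 21.2-fold higher with XCT790 (adjusted p = 6.16e-16). Bnip3, a mitophagy receptor, read 5.97, 6.33 and 5.63 at rest, 8.57, 7.73 and 8.20 after stimulation and 11.97, 12.18 and 12.24 with XCT790, a rise of 71.2-fold over rest and 15.6-fold over stimulated cells. Ndrg1 rose 16.6-fold from a level at which stimulated cells lay 0.47 lower than rest, and Egln3, a prolyl hydroxylase that is itself a target, rose 7.38-fold. Pdk1, a pyruvate dehydrogenase kinase, fell by 1.26 against rest and was 1.33 higher than in stimulated cells. Against resting knockout arrays 16 of 17 targets rose and 1 fell, with a median of 2.35.

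Mitochondrial energy genes were opposite. In the respiratory chain and the tricarboxylic acid cycle, activation raised many genes by small steps, and XCT790 cells stood below rest. Of 20 cycle genes, 10 rose and 2 fell with activation in knockout cells; with XCT790, 3 rose and 11 fell, with a median of -0.31 beside 0.26 for stimulation, and 19 were lower than in stimulated cells. The 10 of 20 only just gave this list a direction, and it had none when the compared groups were fitted alone, with all single-gene probe sets tested or with activation taken from wild-type cells. Of 38 genes of complex I and its assembly, 22 rose and 5 fell with activation; with XCT790, 5 rose and 24 fell, with a median of -0.31 beside 0.40, and 33 were lower than in stimulated cells. Of 36 genes of complexes III and IV and the ATP synthase, 25 rose and 1 fell with activation; with XCT790, 7 rose and 22 fell, with a median of -0.24 beside 0.40, and 35 were lower than in stimulated cells. The share of members that fell was 38.3% over all genes. Against resting knockout arrays the falls numbered 12 of 20, 22 of 38 and 20 of 36, with medians of -0.26, -0.31 and -0.21. When a 2-fold change was required, none of these 3 lists had a direction with activation in knockout cells, so none could be classed as opposite.

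Suclg1, the succinyl-CoA ligase subunit that makes GTP or ATP in the cycle, had a large shift: 11.05, 11.07 and 11.10 at rest, 11.46, 11.57 and 11.48 after stimulation and 9.73, 10.35 and 10.11 with XCT790. All XCT790 arrays lay below all resting ones, which lay below all stimulated ones, and the fall was 2.02-fold (adjusted p = 1.51e-06). Subunits of succinate dehydrogenase, shared by the cycle and the chain, followed the same order: Sdhc fell by 0.73, Sdhd by 0.54 and Sdhb by 0.33, and they were lower than in stimulated cells by 1.09, 1.20 and 0.81. Idh2, an isocitrate dehydrogenase that makes NADPH, fell 4.01-fold, while Idh3a, of the enzyme that makes NADH, rose 1.68-fold by its brightest probe set and differed by 0.03 with its probe sets averaged (adjusted p = 0.8224). In complex I, Ndufb3 fell by 1.04 and Ndufa5, which had risen by 0.87 in stimulated knockout cells, fell by 0.41. Ndufaf4, an assembly factor, rose 4.07-fold and could not be told apart from stimulated cells (adjusted p = 0.204). In complex III, Uqcr11 read 10.77, 10.64 and 10.71 at rest, 11.49, 11.37 and 11.37 after stimulation and 9.82, 9.98 and 9.86 with XCT790, a fall of 1.77-fold.

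Other mitochondrial genes did not fall into 1 class. Of 74 mitochondrial ribosomal proteins, 66 rose with stimulation with a median of 0.97. With XCT790, 22 rose and 24 fell, with a median of -0.08. These counts are near the shares over all genes, 33.4% up and 38.3% down. Against stimulated cells 70 of the 74 were lower, beside 36.9% of all genes. Mrps18b rose 2.95-fold, and Mrpl12 rose 1.37-fold and stood 1.05 below stimulated cells. From resting knockout arrays 24 rose and 29 fell. Genes of mitochondrial transcription and import, by contrast, were present, with 15 of 25 up and 3 down. Enzymes of fatty acid oxidation had no direction with activation: in knockout cells 2 rose and 9 fell of 21, and in wild-type cells 3 rose and 9 fell. With XCT790, 2 rose and 16 fell, with a median of -0.93 beside 0.03, and 13 were lower than in stimulated cells. Cpt1a, the carnitine palmitoyltransferase that admits fatty acids to mitochondria, read 8.34, 8.47 and 9.05 at rest, 5.33, 4.15 and 4.68 after stimulation and 6.57, 6.68 and 6.83 with XCT790, and its difference of -1.93 from rest left it 1.97 above stimulated cells. Hadha and Etfb, of the later steps, fell, with differences of -0.87 and -1.65 from rest and of -1.02 and -1.80 from stimulated cells. Acadm, a dehydrogenase of medium-chain fatty acids and a known target of ERRα, fell by 0.54 (adjusted p = 0.00121).

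The element of oestrogen-related receptors, spelled TNAAGGTCA, was looked for in the same windows because ERRα is the target of XCT790. It stood on either strand in 1.14% of all promoters and in 0.777% of the tested genes, in 0 of 35 complex I genes, 0 of 18 cycle genes, 0 of 19 fatty acid oxidation genes and 1 of 28 genes of complexes III and IV and the ATP synthase. That gene is Atp5g3, which encodes the c subunit of the ATP synthase, and the element, in capitals as its reverse complement, begins 52 bases before the start.
Atp5g3, chr2:73911346-73911402, minus strand: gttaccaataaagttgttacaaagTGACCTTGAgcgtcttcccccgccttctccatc
Atp5g3 read 13.72, 13.60 and 13.69 at rest, 14.21, 14.17 and 14.16 after stimulation and 13.50, 13.60 and 13.60 with XCT790. It was 0.61 lower than in stimulated cells (adjusted p = 1.57e-06) and differed from rest by -0.10 (adjusted p = 0.184), so it was missing rather than opposite. A window without these letters says nothing on where the receptor binds.

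**Figure D3:**
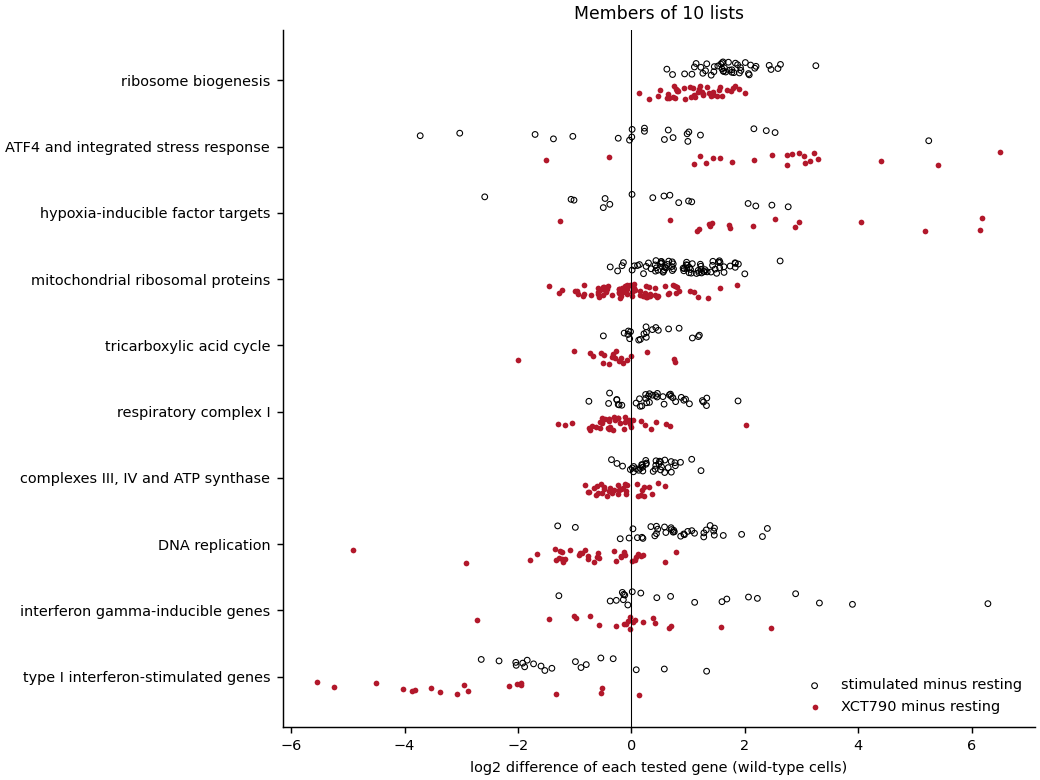
Log2 difference from resting wild-type cells of each tested gene in 10 lists, with XCT790 as filled red points and with stimulation alone as open circles; each value is a difference of means of 3 arrays, and both sets share the resting arrays. Red points lie right of the circles for the integrated stress response and the hypoxia-inducible factor targets, and left of them, around or below 0, for the mitochondrial lists, DNA replication and both interferon lists.

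Sterol genes were mixed. T cells make cholesterol as they grow, and LXR, a receptor for oxidised sterols, is silenced. Of 19 genes of cholesterol synthesis and uptake, 15 rose with stimulation with a median of 1.10. With XCT790, 8 rose and 7 fell, with a median of -0.16, where 33.4% of all genes rose and 38.3% fell. Against stimulated cells 15 of the 19 were lower, beside 36.9% of all genes. Against resting knockout arrays 9 rose and 4 fell, with a median of -0.03. Hmgcs1, which makes the precursor of mevalonate, rose 1.34-fold with XCT790 (adjusted p = 0.01) to a level 0.81 below stimulated cells. Sqle, squalene epoxidase, rose by 0.62 beside 2.21 with stimulation, and Idi1 by 1.83 beside 3.08. Pmvk fell by 1.16, Nsdhl fell by 1.01 and Dhcr7, of the last step, fell by 2.15. Of 8 LXR targets, 5 fell and 5 were higher than in stimulated cells. Abca1, which exports cholesterol, read 10.07, 9.66 and 9.53 at rest, 3.51, 2.82 and 4.04 after stimulation and 7.86, 7.96 and 7.87 with XCT790. Its difference from rest was -1.85 with XCT790 and -6.29 with stimulation alone, and Abcg1 fell 2.82-fold with XCT790 and differed by -3.04 with stimulation.

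DNA replication separated XCT790 from stimulation in wild-type cells. Of 37 genes, 25 rose and 2 fell with stimulation in wild-type cells, whereas in knockout cells 6 rose and 8 fell, so the list had no direction by the knockout arrays. With XCT790, 2 rose and 22 fell against rest, with a median of -0.76 beside 0.74, and 35 of 37 were lower than in stimulated cells. Where activation was taken from wild-type cells instead, the list was classed as opposite. Mcm5, a subunit of the replicative helicase, read 8.91, 8.06 and 8.27 at rest, 10.48, 10.33 and 10.26 after stimulation and 7.04, 7.19 and 7.15 with XCT790, and Mcm4, another subunit, fell by 1.17. Gins1, which holds the helicase at the fork, fell by 1.79 and was 17.1-fold lower than in stimulated cells. Rrm2, the subunit of ribonucleotide reductase that limits deoxynucleotide supply, read 10.38, 9.40 and 9.54 at rest, 8.62, 8.31 and 8.49 after stimulation and 5.98, 4.75 and 3.89 with XCT790, a fall of 4.90. Pcna, the sliding clamp, differed from rest by 0.17 (adjusted p = 0.152). Against resting knockout arrays 1 of the 37 rose and 32 fell, with a median of -1.30. Erythroid markers had a summed signal of 10.3 to 12.0 at rest, 5.79 to 5.98 after stimulation and 5.76 to 5.77 with XCT790. There 11 of 11 were under log2 4. Of the 9 tested, 6 fell against resting wild-type arrays, with a median of -2.67. Against resting knockout arrays 9 fell, with a median of -6.83. The part of erythroid cells in the falls of replication genes, from either reference, was not tested. Of 25 mitosis genes, 16 fell and 1 rose with XCT790, 11 and 1 with stimulation. Cdkn1a, which encodes the cell cycle inhibitor p21, read 2.80, 2.47 and 3.26 at rest, 9.80, 8.69 and 9.38 after stimulation and 9.88, 9.36 and 9.35 with XCT790, at least 46.2-fold above rest in full overlap with stimulated cells.

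Interferon genes were low with XCT790. Type I interferon-stimulated genes are induced by interferon alpha and beta and defend against viruses. They had no direction in knockout cells, where 2 rose and 5 fell of 19, and fell with stimulation in wild-type cells, where 2 rose and 11 fell. With XCT790, 0 rose and 17 of 19 fell against rest, with a median of -2.96 beside -1.53, and 14 were lower than in stimulated cells. Usp18, which removes ISG15 from proteins and blocks the interferon receptor, read 9.44, 9.26 and 9.52 at rest, 9.03, 8.46 and 9.11 after stimulation and 3.72, 4.13 and 3.72 with XCT790. The XCT790 arrays lay at the floor, 41.1-fold below rest and 28.3-fold below stimulated cells. Oas1a, an activator of RNase L, fell at least 13.6-fold, Irf7, a driver of interferon production, 16.4-fold and Rtp4 22.6-fold. Against resting knockout arrays 18 of 19 fell and 0 rose, with a median of -3.36. Macrophage markers were lost alike, with 16 of 17 under log2 4 with XCT790 and 16 of 17 after stimulation. Dendritic cell markers had a summed signal of 12.7 to 13.4 at rest, 11.2 to 11.9 after stimulation and 10.3 to 10.8 with XCT790, and their part in these falls was not tested.

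Genes that interferon gamma induces were the list classed as missing. Of 21, 13 rose and 1 fell with activation in knockout cells; with XCT790, 4 rose and 7 fell, with a median of -0.03 beside 0.45 for stimulation, and 14 were lower than in stimulated cells. With compound A, 13 rose and 1 fell, where 32.4% of all genes rose and 37.0% fell. Irgm1, a GTPase that acts against intracellular bacteria, read 9.96, 9.83 and 9.99 at rest, 12.03, 11.91 and 12.04 after stimulation and 9.50, 10.04 and 10.06 with XCT790, which overlapped rest and lay 4.37-fold below stimulated cells. Gbp2, a guanylate-binding protein, was present in part, with a rise of 1.58 beside 3.31. Psmb8, a catalytic subunit of the immunoproteasome, read 12.81, 12.81 and 12.79 at rest, 12.77, 12.66 and 12.63 after stimulation and 11.40, 11.32 and 11.33 with XCT790, a fall of 2.74-fold, with every XCT790 array below the others. Against resting knockout arrays 7 of the 21 rose and 8 fell. The list became mixed when the compared groups were fitted alone and with array weights, and it had no direction with a 2-fold limit.

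Heat shock genes rose beyond activation in a few members. Of 16, 13 rose with XCT790 and 2 fell, with a median of 0.91 beside 0.63, and 6 were higher and 4 lower than in stimulated cells. Hspa1b, an inducible chaperone of the HSP70 family, read 7.30, 8.91 and 8.04 at rest, 5.95, 5.85 and 6.02 after stimulation and 13.41, 11.70 and 12.59 with XCT790, a rise of 22.3-fold over rest and 98.6-fold over stimulated cells. Hspa1a read 2.32, 2.91 and 2.40 at rest and 10.28, 7.83 and 8.97 with XCT790, at least 32.6-fold higher, a bound that was 21.1-fold without XCT790 array 1 and 49.4-fold without array 2. These genes are near-identical copies, so the signal cannot be assigned to either with certainty. Heat shock factor 1 binds repeats of the pattern searched as GAANNTTC, which stood in 6.69% of all promoters, in 6.25% of the tested genes and in 5 of 14 heat shock genes, Hspa1a and Hspa1b among them. The stretch 104 bases before the start is the same in both copies, at chr17:34972229-34972284 for Hspa1a and at chr17:34959311-34959366 for Hspa1b, each on the minus strand, with the element in capitals.
Hspa1a and Hspa1b: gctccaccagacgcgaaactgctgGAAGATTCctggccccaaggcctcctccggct
Hsph1, a partner of HSP70, rose 4.55-fold and could not be told apart from stimulated cells. Among genes of the endoplasmic reticulum, 10 of 22 rose and 4 fell. Herpud1, which helps remove misfolded proteins, rose 1.62-fold although activation lowered it by 1.27 in knockout cells, and Hspa5 (BiP), the main chaperone there, rose 1.35-fold.

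Genes that activation lowers were mostly lowered, and some were held back. Of 27 quiescence and naive cell genes, 21 fell and 3 rose with stimulation, with a median of -1.55; with XCT790, 16 fell and 6 rose, with a median of -0.78, and 18 were higher than in stimulated cells. Il7r, the interleukin-7 receptor that sustains naive cells, read 13.39, 13.29 and 13.40 at rest, 8.64, 8.88 and 8.92 after stimulation and 9.85, 8.57 and 9.10 with XCT790, a full fall of 18.2-fold. Klf3 fell 6.38-fold and Klf2 2.46-fold. Tsc22d3, the glucocorticoid-induced leucine zipper, read 12.39, 12.44 and 12.29 at rest, 7.83, 8.08 and 8.31 after stimulation and 10.11, 9.76 and 9.83 with XCT790, a difference from rest of -2.47 beside -4.30 with stimulation. Sgk1 and Dusp1, which glucocorticoids also induce, fell, with differences of -3.16 and -2.08 beside -4.82 and -3.98. Of the 12 glucocorticoid response genes, 9 fell and 3 rose with XCT790, and 7 were higher than in stimulated cells. Btg1, which restrains proliferation, differed from rest by -0.10 (adjusted p = 0.255) and was 1.00 higher than in stimulated cells.

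Homing receptors fell as with stimulation: 11 of 16 with a median of -2.06, beside 13 and -1.75. Itgb7, an integrin chain for the gut, fell 25.6-fold and Cxcr3 15.9-fold, and S1pr1, which lets cells leave lymph nodes, fell 3.80-fold and stood 1.35 above stimulated cells. Cxcr4, the receptor of the chemokine CXCL12, did not follow. It read 11.58, 11.65 and 11.62 at rest, 7.40, 7.15 and 6.97 after stimulation and 11.88, 11.14 and 11.76 with XCT790. The XCT790 arrays straddled the resting ones and stood 21.4-fold above stimulated cells (adjusted p = 1.16e-10), and Cxcr4 was 0.51 above resting knockout arrays (adjusted p = 0.01457). Rora, an orphan nuclear receptor, was opposite: 7.85, 7.93 and 7.74 at rest, 4.90, 4.95 and 4.67 after stimulation and 9.04, 8.57 and 8.71 with XCT790, a rise of 0.93 ± 0.22 (adjusted p = 0.00169).

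The T cell receptor complex fell further than with stimulation. Of 16 genes of the receptor and its first signalling steps, 11 fell and 2 rose with XCT790, with a median of -0.93 beside -0.61, and 8 were lower than in stimulated cells. Cd3g, a chain of the CD3 complex, read 13.14, 13.17 and 13.18 at rest, 12.13, 12.17 and 11.95 after stimulation and 10.80, 11.14 and 10.75 with XCT790, and it fell 4.80-fold. Cd4, the coreceptor, fell 5.29-fold and was 2.04-fold lower than in stimulated cells. Cd247, the zeta chain, fell by 1.35, where activation gave -0.04 in knockout cells (adjusted p = 0.789).

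Markers of the cells themselves were checked against the label. All 8 T cell markers were detected in each group, and their summed signal was 15.7 to 15.8 on the log2 scale at rest, 14.9 to 15.1 after stimulation and 14.6 to 14.7 with XCT790. Resting preparations also held RNA of other blood and spleen cells. Macrophage markers summed to 12.5 to 13.5 at rest and to 6.40 to 6.68 with XCT790, where 16 of 17 were under log2 4 on all arrays, Csf1r and C1qa among them. B cell markers summed to 15.3 to 15.4 and to 13.1 to 14.0, neutrophil markers to 8.68 to 10.4 and to 6.10 to 7.30, and plasma cell markers to 13.8 to 13.9 and to 8.92 to 10.5. Such genes supplied many of the deepest falls. Csf1r, the receptor of macrophage colony-stimulating factor, read 11.67, 10.85 and 10.71 at rest and 2.36, 2.37 and 2.38 with XCT790, at least 135-fold lower, and the macrophage genes C1qa, C1qb, Vcam1, Fcna and Slc40a1 and the erythroid gene Car1 were also among the 12 largest fitted falls. Dtx1 and Hsd11b1, which are in no list of other cells, fell 178-fold and 167-fold. The stimulated cells had lost these signals as well, with macrophage markers at 6.45 to 6.94. Resting knockout arrays differed in these signals. The median XCT790 difference of macrophage markers was -7.17 from knockout rest and -5.84 from wild-type rest. For neutrophil markers it was -5.85 and -1.47, and for B cell markers -2.21 and -2.99. Lysosomal genes, of which 21 of 35 fell with a median of -0.39, are also made by macrophages, and the part of lost cells in that list was not tested.

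The 12 largest rises were taken by fitted difference. Genes that are not detected at rest, for which only a bound is known, are among them, so their order is not measured. Tg, the thyroid hormone precursor thyroglobulin, read 2.39, 2.41 and 2.43 at rest, 10.29, 9.73 and 10.00 after stimulation and 9.59, 9.85 and 9.89 with XCT790, at least 54.8-fold higher than rest. Akr1c18, which inactivates progesterone, Lad1, an anchoring filament protein, and Mir155hg, the host of a microRNA that lymphocytes induce, rose at least 53.6-fold, 93.7-fold and 19.7-fold. Trib3, Vegfa and Hspa1a, described above, were the rises among the 12 that did not pass in stimulated wild-type cells.

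Some activation genes were wholly missing or reversed outside the lists. Crabp2, which carries retinoic acid, read 2.25, 2.26 and 2.26 at rest, 10.10, 9.98 and 9.88 after stimulation and 2.31, 2.27 and 2.31 with XCT790. A gene that stimulated cells expressed strongly was thus under the floor in all XCT790 arrays, at least 63.4-fold lower (adjusted p = 2.76e-14). Pros1, an anticoagulant that T cells display to dendritic cells, and Prss16, a serine protease known from the thymus, were likewise under the floor at rest and with XCT790, and at least 28.7-fold and 6.90-fold lower than in stimulated cells. Myo6, an unconventional myosin, was opposite and not detected with XCT790: 6.75, 7.23 and 7.19 at rest, 8.61, 8.86 and 9.01 after stimulation and 2.15, 2.29 and 2.29 with XCT790, at least 8.32-fold below rest and 28.4-fold below stimulated cells. Ada, adenosine deaminase, fell at least 3.27-fold and Zbp1, a sensor of Z-form nucleic acid, 8.22-fold. Of the 6873 genes tested, activation genes or not, 437 were higher and 620 lower with XCT790 than in both resting and stimulated cells. These differed at least 2-fold from rest, as 31.0% of all genes did in either direction. No fold limit was set on the difference from stimulated cells.

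Of 53 gene lists, 32 rose and 12 fell with activation in knockout cells and 9 had no direction. Of the 32, 24 were present with XCT790, 1 was missing, 3 were opposite and 4 mixed. Of the 12, 10 were present and 2 mixed. Present asks for 50% of members, where 33.4% of all genes rose and 38.3% fell. Several classes were not stable. With activation taken from wild-type cells, DNA replication, which had no direction in knockout cells, was opposite, and the tricarboxylic acid cycle had no direction. The purine, NRF2 and metallothionein lists became mixed with all single-gene probe sets tested. CDK inhibitors and p53 targets had no direction with a common median or without any 1 resting array. Pyrimidine and fatty acid synthesis enzymes, classed as falling, had medians of 0.44 and 0.06 with stimulation in wild-type cells.

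**Figure D4:**
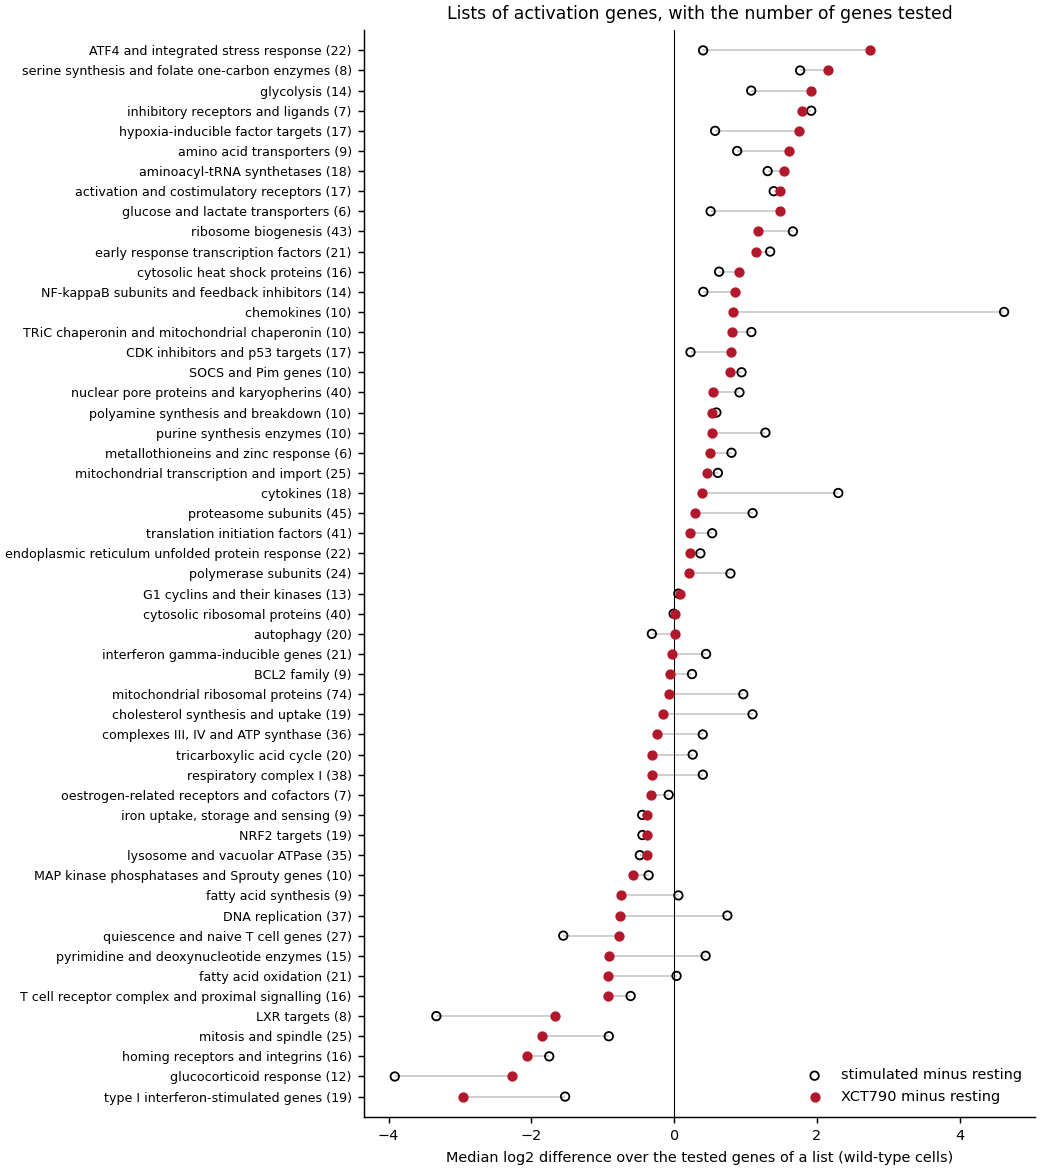
Median log2 difference from resting wild-type cells over the tested genes of 53 lists, ordered by the value with XCT790 (red points) beside that with stimulation alone (open circles), with the number of genes tested in parentheses; both use the same resting arrays. The integrated stress response is highest with XCT790 at 2.74, chemokines have the widest gap, and type I interferon-stimulated genes are lowest at -2.96.

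Compound A at the same concentration gave another pattern in the same comparison with rest, which shares the 3 resting arrays. Of all genes, 69.4% changed with compound A, and 52.2% differed between the inhibitors, 24.5% higher and 27.6% lower with XCT790. Of 38 complex I genes, 19 rose and 2 fell with compound A beside 5 and 24 with XCT790. The integrated stress response had 10 rises and 3 falls beside 20 and 1, and the hypoxia-inducible factor targets 8 and 4 beside 16 and 1. Mitochondrial ribosomal proteins had 57 rises and 6 falls beside 22 and 24. Heat shock genes had 11 rises and 2 falls beside 13 and 2, with medians of 0.82 and 0.91. Vegfa was under log2 4 on all compound A arrays and at least 21.2-fold higher with XCT790 (limma, adjusted p = 7.1e-16). Ifng rose by 2.17 with compound A, and its difference between the inhibitors was -3.46 (adjusted p = 1.64e-06).

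Esrra itself, the gene of the targeted receptor, was expressed near the floor. It read 5.51, 5.25 and 5.51 at rest, 5.28, 5.47 and 5.36 after stimulation and 5.06, 5.08 and 5.14 with XCT790. The XCT790 arrays lay below all others by a small step, a difference of -0.32 ± 0.11 from rest (adjusted p = 0.0189) that did not pass without resting array 1 (adjusted p = 0.0679) or 3 (adjusted p = 0.0692). Esrra was 0.55 higher with XCT790 than on resting knockout arrays (adjusted p = 0.0005377); it is not known here if this probe set covers sequence that the knockout removed, so this value cannot be read as a change with XCT790.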

How the data were processed

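RNA of purified mouse CD4+ T cells was measured on 18 microarrays, 3 in each of 6 groups, taken from the titles. The deposited values are log2 signals that the authors computed with GCRMA, per the submitters' processing notes; they were used as deposited, since all arrays already shared 1 distribution. Of 22690 probe sets, those left out were 64 controls, 1555 that name no gene and 691 that name more than 1. Probe sets at log2 4 or more on at least 3 of 18 arrays were tested in 1 model with a mean per group (limma 3.58.1, R 4.3.3; Benjamini-Hochberg over all tested probe sets; adjusted p under 0.05), checked first on simulated data. Errors after ± are standard errors of this model unless named as SD. Figures were drawn in Python 3.11.15 with matplotlib 3.10.9. A gene was read from its probe set of highest mean, and 216 of the 2525 genes with several tested probe sets had some that passed in opposite directions. A fold is written "at least" where all arrays of the lower group were under log2 4, with values under 4 set to 4. Precision is limited by having 3 arrays in each group, and the residual SD had a median of 0.166.

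A list had a direction where at least 50% of its tested members passed that way in stimulated against resting knockout cells. It was present with at least 50% moving so against rest, opposite with at least 50% moving against it, missing with at most 25% moving so and at least 50% differing from stimulated cells on the side of rest, and mixed otherwise. The members and lists were chosen with earlier results of these data known. Genes named were Esrra, the 12 largest rises and falls, and the 10 opposite and 10 missing genes that differed most. Also named were the 10 genes farthest beyond both resting and stimulated cells, up to 4 genes of smallest adjusted p in each list, and a short set of known T cell genes. Other named list members were chosen after their values were seen. Replicate numbers were tested for pairing: deviations of same-numbered arrays correlated at -0.0126, -0.0541 and -0.0186 for XCT790 with rest, and at 0.231, 0.110 and 0.166 for XCT790 with stimulated cells. The second set passed 0.1 in every pair, so those numbers may share a batch, and a fit with the number as a block was an alternative. Other alternatives were the filter, centring, the choice of probe sets, the arrays fitted, the prior, array weights, a 2-fold limit, the definition of activation, and leaving out each array. Resting knockout arrays as the reference were added after the control probe sets had been seen.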

Additional observations from a re-analysis of the deposited data

Results flagged for a closer look

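The 5′ probe set of the bacterial dap control, which belongs to no comparison of genes, read 2.99 log2 units higher on XCT790 arrays than on resting wild-type arrays. Its level on the knockout and compound A arrays was also above that of the resting and stimulated wild-type arrays, at 7.37 to 7.63 in group means.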

How the results depend on the processing

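The counts of probe sets past the threshold, 4137 up and 3596 down against rest and 3385 up and 3739 down against stimulated cells, moved by more than 1.5 times under settings that test fewer features or ask for more. With 1 probe set per gene, 2306 rose against rest and 1997 against stimulated cells. With each gene's probe sets averaged they were 2511 up and 2340 down against rest and 2005 up and 2439 down against stimulated cells, with 65 missing falls. With a 2-fold limit they were 1814 and 1778, and 1229 and 1249; 480 rises were present and 13 opposite, 9 falls were opposite, 11 lists were present and 0 opposite. Among activation genes of at least 4-fold, 216 rises were present, 38 missing and 11 opposite, and 411 falls were present, 16 missing and 5 opposite. With array weights, 96 rises were missing and 64 opposite, 52 falls were missing and 57 opposite, and 0 lists were missing. In that fit XCT790 array 3 had a weight of 18.3, beside 0.203 for array 1 and 0.441 for array 2. The XCT790 mean there thus comes mostly from array 3, and the part of this in the moved counts was not tested. The missing lists also numbered 0 with the compared groups alone and 2 with a floor of log2 6.

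Leaving out 1 array at a time gave 1 to 2 missing lists and 6 to 11 mixed ones, the 11 without XCT790 array 2 and 2 missing without resting array 2 or 3 or XCT790 array 2 or 3. Translation initiation factors and polymerase subunits, classed as present, became mixed without XCT790 array 2 and without array 3. With the replicate number as a block, the counts were 4189 up and 3673 down against rest and 3439 up and 3815 down against stimulated cells; 789 rises were present, 156 missing and 32 opposite, and no call of a named gene was lost. Il2ra, Jun, Klf2 and Lad1 passed against stimulated cells under the block and not without it. Values that changed sign were Ndufaf4 against stimulated cells at -0.24 with its probe sets averaged and, against resting knockout arrays, Asns at -0.17, Cxcr4 at 0.51 and Esrra, which the knockout targets, at 0.55. GCRMA places undetected genes near log2 2, so differences from such levels depend on it, and only 3 arrays per group limit what small differences can pass.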

Other observations

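Several lists that the comparisons above did not describe also moved. Of 40 nuclear pore and transport genes, 28 rose with XCT790 against rest and 5 fell, with a median of 0.54. Of 24 genes of the RNA polymerases, 13 rose and 6 fell, and 16 were lower than in stimulated cells. Polyamine genes had 7 rises and 1 fall among 10, and Odc1, the enzyme that starts the pathway, rose 6.64-fold. Targets of NRF2, the factor that answers oxidative stress, had 5 rises and 10 falls among 19, with a median of -0.38 beside -0.44 for stimulation alone. Mt1, a metallothionein that binds zinc and copper, read 8.60, 7.01 and 7.78 at rest, 3.22, 2.61 and 2.98 after stimulation and 6.08, 5.34 and 4.61 with XCT790. Its XCT790 arrays lay between the other groups without overlap, 5.48-fold below rest (limma, adjusted p = 0.00242). The 40 cytosolic ribosomal proteins, which sit near the top of the signal range, had 2 rises and 4 falls with a median of 0.02.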
